A study of Rattus norvegicus with 458 samples.

Results

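The miRNAs of the imprinted Dlk1-Dio3 region were followed across the organs of the adult rat. A member was any mature miRNA name of the deposited count table that belongs to a hairpin of this region, from miR-770 to miR-410, whatever its level. The rule used names only and no measured value. It found 95 members among 7534 names, of which 4793 were mature names rather than entries for hairpin reads outside the annotated mature forms. Of the 95, 80 passed the filter on low counts and could be tested, and the other 15 held 1017 counts together. Among the members, 9 were ambiguous entries that share a sequence with another name, and these held 0.0292% of the members' 41916037 counts.

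The Dlk1-Dio3 region is a block of imprinted genes in which the paternal copy makes the proteins DLK1, RTL1 and DIO3 and the maternal copy makes long noncoding RNAs, Meg3 among them. The same maternal RNA strand carries one of the largest groups of miRNAs in placental mammals. A miRNA is cut from a hairpin, from its left (5p) or right (3p) arm, and finds its target RNAs mainly through its seed, the stretch just after its first base. Several miRNAs of this region are known in neurons, miR-134 among them as a regulator of dendritic spines, and several hairpins are known substrates of the ADAR enzymes, which turn adenosine into inosine, a base that sequencing reads as G.

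Small RNA libraries were made from 23 tissues of Sprague Dawley rats aged 12 to 13 weeks. Apart from the dorsal root ganglia, they came from 10 rats, 5 males (rats 2 to 6) and 5 females (rats 7 to 11). Each sample was 1 tissue of 1 rat, except that the dorsal root ganglia (DRG, the sensory ganglia beside the spinal cord) came as 10 libraries from 2 pools of animals, 1 pool per sex, counted here as 2 samples. According to the paper, Takeda Pharmaceuticals supplied the DRG RNA, and the labels give no rat numbers for the pools. Testis came only from males, and ovary and uterus only from females. Library totals ran from 376401 to 17725805 counts, with a median of 4816409, and levels are given as CPM, the count relative to this total at a common scale for all libraries. The tissues carried the miRNAs that define them: miR-124-3p and miR-9a-5p were highest in the 4 brain regions, miR-122-5p was highest in liver, miR-133a-3p in biceps, soleus and heart, miR-451-5p in blood and miR-34c-5p in testis.

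Among the samples, 8 went against their labels or stood apart and were set aside before the results. The duodenum of rats 2, 4 and 7 held miR-124-3p, a neuronal miRNA, at 5311, 5627 and 4113 CPM, and the hippocampus of rats 2, 6 and 7 held it at 0.568, 4.05 and 2.38 CPM. The adrenal of rat 8 held miR-215, an intestinal and renal miRNA, at 210076 CPM. The duodenum of rat 11 held miR-215 at 55.8 CPM and the endocrine miRNA miR-375-3p at 2454 CPM. With the 8 samples kept, the members' mean share of counts would be 16.3% in place of 23.3% in hippocampus, 9.95% in place of 11.04% in adrenal and 9.36% in place of 0.132% in duodenum. The remaining 199 samples are used below. In the samples used, miR-215 ran from 1.76 to 270908 CPM in ovary and from 14.3 to 267430.5 CPM in uterus, and with the ovary of rat 11 and the uterus of rat 8 left out as well, the counts of members called in brain and adrenal stayed at 78 and 80, and those called lower were 36 in place of 37 in ovary and 10 in place of 12 in uterus, 8 of the 10 among the 12. Whether a low level in a tissue means fewer cells that hold these miRNAs or less of them in each cell cannot be told apart in bulk samples.

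For 83 of the 95 members, a mature sequence was matched in RefSeq (rat assembly GRCr8). All 83 lie on chromosome 6, within chr6:134298094-134579828, which spans 281.735 kb, and 80 read along the plus strand. They fall in stretches with a gap of 188.9 kb between miR-370 and miR-379. The proximal stretch, from miR-770 to miR-370, spans 56.466 kb and holds 24 of the members, of which 4 belong to miR-341 and miR-370. miR-770 lies inside the bounds of Meg3 (chr6:134274056-134306249), and miR-431, miR-433, miR-127, miR-434 and miR-136 lie inside those of Rtl1 (chr6:134325231-134335780). The distal stretch, from miR-379 to miR-410, spans 36.369 kb and holds 71. The sequences below are of the members on which the results turn, in their order on the chromosome, all on the plus strand, 5′ to 3′. Capitals mark the seed, bases 2 to 8.
miR-770-5p (chr6:134298094-134298115): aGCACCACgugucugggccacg
miR-493-3p (chr6:134314784-134314804): uGAAGGUCuacugugugccag
miR-431 (chr6:134326468-134326488): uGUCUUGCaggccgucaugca
miR-127-3p (chr6:134328510-134328531): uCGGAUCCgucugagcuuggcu
miR-434-3p (chr6:134330451-134330472): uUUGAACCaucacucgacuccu
miR-136-3p (chr6:134331383-134331404): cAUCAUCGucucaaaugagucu
miR-341 (chr6:134347871-134347891): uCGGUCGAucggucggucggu
miR-411-5p (chr6:134544604-134544624): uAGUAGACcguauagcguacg
miR-494-3p (chr6:134550163-134550185): uGAAACAUacacgggaaaccucu
miR-1193-3p (chr6:134550509-134550530): uAGGUCACccguuuuacuaucc
miR-381-3p (chr6:134562422-134562439): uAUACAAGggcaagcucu
miR-539-3p (chr6:134563646-134563667): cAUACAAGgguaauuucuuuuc
miR-134-5p (chr6:134570320-134570341): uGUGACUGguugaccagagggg
miR-410-3p (chr6:134579808-134579828): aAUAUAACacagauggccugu
The 83 sequences hold 77 distinct seeds. Among these, 5 seeds are shared between members, such as AUACAAG of miR-381-3p and miR-539-3p and AGGUCAC of miR-370-5p and miR-1193-3p, and no other RefSeq rat mature miRNA has one of the 5.

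The next set shows members with frequent reads of G at a genomic A, each as RefSeq gives it and with the G, so that the change of the seed can be seen. Capitals again mark bases 2 to 8. The token gives the reference base, its position from the 5′ end and the base read. The last pair is miR-411-5p as RefSeq gives it and with the start 1 base earlier that many of its reads had.
miR-376c-3p (chr6:134558256-134558276): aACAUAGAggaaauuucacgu
miR-376c-3p A6G: aACAUGGAggaaauuucacgu
miR-376b-3p (chr6:134558913-134558933): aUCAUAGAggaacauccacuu
miR-376b-3p A6G: aUCAUGGAggaacauccacuu
miR-377-3p (chr6:134576498-134576520): uGAAUCACacaaaggcaacuuuu
miR-377-3p A13G: uGAAUCACacaagggcaacuuuu
miR-411-5p (chr6:134544604-134544624): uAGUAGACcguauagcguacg
miR-411-5p A5G: uAGUGGACcguauagcguacg
miR-337-3p (chr6:134321201-134321223): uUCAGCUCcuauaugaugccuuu
miR-337-3p A4G: uUCGGCUCcuauaugaugccuuu
miR-379-5p (chr6:134543460-134543480): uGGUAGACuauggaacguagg
miR-379-5p A5G: uGGUGGACuauggaacguagg
miR-411-5p, RefSeq start: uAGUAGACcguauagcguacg
miR-411-5p, start 1 base earlier: aUAGUAGAccguauagcguacg

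The members took their largest share of all miRNA counts in the brain and the adrenal gland. Of all counts in a library, they made up 23.3% ± 1.78 (SD, n = 7) in hippocampus, with a lowest library of 20.8% and a highest of 25.9%. The share was 21.3% ± 3.20 (n = 10, 16.4% to 28.5%) in brainstem and 20.4% ± 1.79 (n = 10, 17.3% to 24.2%) in cerebrum. These 3 regions overlapped. The adrenal followed at 11.04% ± 2.75 (n = 9, 7.11% to 14.3%), below every cerebrum library, and overlapped with the cerebellum at 9.34% ± 0.757 (n = 10, 8.36% to 10.6%). The 2 DRG pools stood at 5.53% and 6.28%, below every cerebellum library.

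Most other organs were far lower. Biceps femoris, a fast skeletal muscle, held 1.28% (0.826% to 1.70%) and soleus, a slow one, held 1.27% (0.839% to 2.31%). These muscles overlapped with each other and did not overlap with the DRG pools above or with testis below, which held 0.403%. Glandular stomach held 0.343% and varied widely between rats, from 0.104% to 0.927%. Liver held 0.0146% and whole blood 0.0032%, the lowest mean share. Along the whole order of 23 tissues, 18 of the 22 neighbouring pairs overlapped, and the 4 that did not were cerebrum and adrenal, cerebellum and DRG, DRG and biceps, and soleus and testis.

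**Figure D1:**
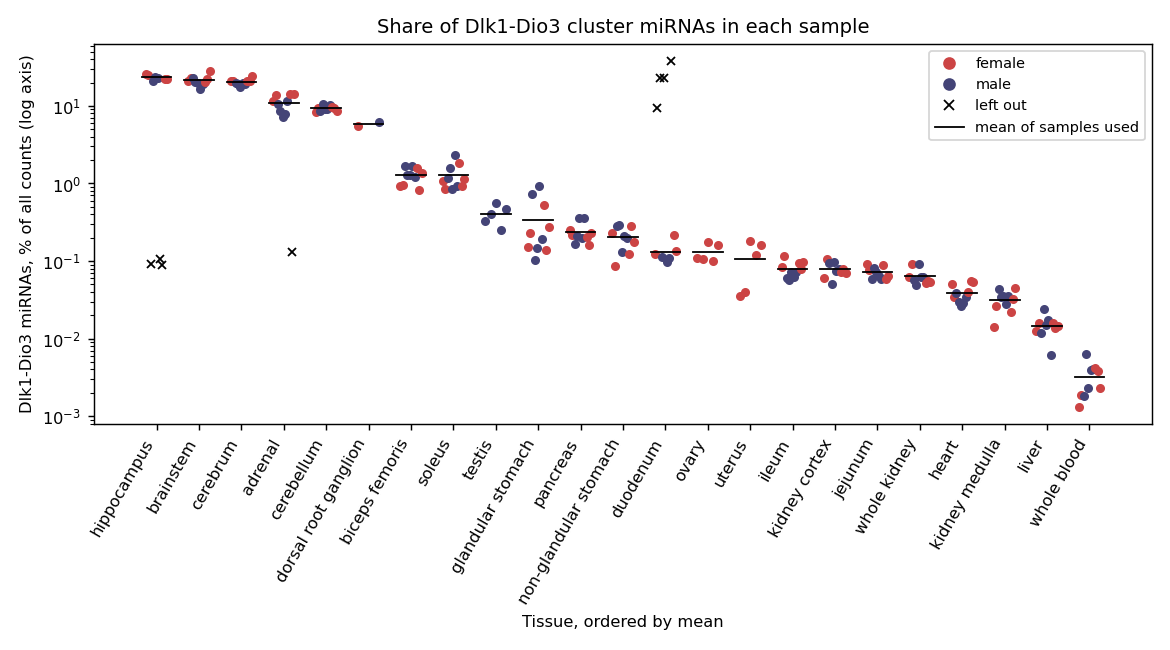
Share of all miRNA counts that belongs to the Dlk1-Dio3 members, in percent on a log axis, for each of 23 tissues. Points are samples, coloured by sex, crosses are the 8 samples set aside, and bars mark the means of the samples used. Hippocampus, brainstem and cerebrum lie near 20%, adrenal and cerebellum near 10%, and liver and blood at 0.0146% and 0.0032%.

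A single member, miR-127-3p, carried most of the signal. It was at 169188 ± 12664 CPM in hippocampus, 159639 ± 24423 in brainstem, 132918 ± 15489 in cerebrum and 65868 ± 7423 in cerebellum (SD). In the adrenal its lowest, median and highest levels were 49713, 78690 and 96784 CPM, which overlapped with the cerebellum alone among the brain regions. It made up 70.8% of the members' counts in brain, 68.3% in adrenal and 76.2% in DRG. Without it, the members still held 7.08% of all counts in cerebrum and 3.52% in adrenal.

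The other leading members stood well below it. miR-434-3p was at 33735 ± 3669 CPM in cerebrum and 7668 ± 2334 in adrenal, without overlap. By contrast, miR-411-5p was at 10672 ± 1576 CPM in cerebrum and 10881 ± 2374 in adrenal, with ranges of 7404 to 12979 and 7128 to 13995 that overlap almost wholly. miR-410-3p stood at 4414 ± 881.6 CPM in cerebrum and 1263 ± 376.5 in adrenal, and miR-136-3p at 3708 ± 893 and 2067 ± 666.3. miR-341 was at 2514 ± 502 and 1868 ± 853 CPM, miR-381-3p at 1572 ± 280 and 1386 ± 512, and miR-300-3p at 1659.7 ± 151 and 709.5 ± 243. miR-541-5p was the reverse of these, at 1626 ± 201 CPM in cerebrum and 2103 ± 454 in adrenal. The last of the 10 members with the highest brain level was miR-434-5p, at 1266 ± 82.6 CPM in cerebrum and 497 ± 124 in adrenal.

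The first question was which members were higher in brain than elsewhere. Of 80 members tested, 78 were higher in the mean of the 4 brain regions than in the mean of the 18 non-neural tissues and 0 were lower (edgeR quasi-likelihood test, Benjamini-Hochberg adjusted p at the 0.05 level over 1591 names). DESeq2 also called 78 higher and 0 lower, and 0 were lower at an unadjusted p under 0.05 in edgeR. Of all names tested, 26.1% were called higher in brain and 35.3% lower. The members' median log2 fold change was 4.46 and that of all names was −0.96. These differences are between means of tissue levels on the log2 scale.

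The members with the widest gap were not the abundant ones. miR-770-5p, cut from a hairpin inside Meg3, was at a lowest, median and highest 17.9, 25.6 and 39.2 CPM in cerebrum and at 0 in every kidney cortex library, and its log2 fold change was 6.71 ± 0.20 (SE, edgeR adjusted p = 3.1e-57). It was also low in the adrenal, at 1.14 to 3.89 CPM. miR-323-5p was at 17.7 to 31.5 CPM in cerebrum and 0.216 to 0.853 in adrenal, with a log2 fold change of 6.63 ± 0.19 (edgeR adjusted p = 3.5e-67). miR-770-3p followed with 6.10. The abundant miR-127-3p had 5.51 ± 0.12 and miR-434-3p 5.62 ± 0.12.

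At the other end, the 2 members that were not called were miR-494-5p, with a log2 fold change of 0.28 ± 0.11 (edgeR adjusted p = 0.077), and the shared entry of miR-299a-5p and miR-299b-5p, with 0.13 ± 0.08 (edgeR adjusted p = 0.14). miR-494-5p was at 0.433 ± 0.340 CPM in cerebrum and 2.84 ± 0.642 in adrenal. Its partner from the same hairpin, miR-494-3p, was the lowest of those called, with 0.41 ± 0.15 (edgeR adjusted p = 0.011), and was at 2.47 to 6.76 CPM in cerebrum and 28.0 to 58.4 in adrenal, without overlap.

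In the adrenal gland, all 80 members tested were higher than in the mean of the other 17 non-neural tissues, against 17.3% of all names called higher and 21.7% called lower (edgeR). The members' median log2 fold change was 5.20 and that of all names −0.76. miR-431 led with 8.08 ± 0.15 (SE, edgeR adjusted p = 2.1e-109), and its levels set adrenal apart from brain as well. Its lowest, median and highest levels were 902, 1959 and 2663 CPM in adrenal, 145, 180 and 246 in cerebrum and 0, 0.482 and 2.04 in liver. miR-433-3p, from the neighbouring hairpin, followed with 6.95 ± 0.16, at 98.8 to 237 CPM in adrenal and 228 to 414 in cerebrum, and miR-540-3p with 6.50 ± 0.18, at 72.1 to 235 and 58.0 to 98.7 CPM. The smallest difference was 3.21, for miR-323-5p. miR-127-3p had 6.40 ± 0.15 and miR-411-5p 5.69 ± 0.12. In the adrenal samples used, the neuronal miRNAs miR-124-3p and miR-9a-5p stood at means of 2.17 and 25.3 CPM. Other neuronal miRNAs are not given here, and the part of neural cells in the adrenal levels was not tested.

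Each tissue was then set against the mean of the other 22, which describes where the region's miRNAs are high or low across the body. Of 80 members tested, 80 were higher in cerebrum, where 25.2% of all names were called higher, and 79 in hippocampus (22.7%). In cerebellum 76 were higher (24.5%), in brainstem 75 (23.3%), and in DRG 70 (16.3%). The adrenal had 80 (18.2%). Among the tissues that are neither neural nor endocrine, the skeletal muscles stood out with 69 higher in biceps (20.6%) and 65 in soleus (22.1%). In these muscles 0 members were called lower by edgeR, with 1 in soleus at an unadjusted p under 0.05, while DESeq2 called 1 lower in biceps and 3 in soleus.

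In the muscles the leading members by fold were not those of the brain. miR-493-5p was at 13.8, 17.8 and 37.2 CPM (lowest, median, highest) in soleus, 11.1, 16.7 and 27.7 in biceps and 14.1, 22.04 and 25.6 in cerebrum, so that muscle and cerebrum overlapped. Its log2 fold changes against the other tissues were 4.69 in soleus and 4.48 in biceps. miR-381-3p was at 892 to 3094 CPM in soleus, a range that overlapped with the 1168 to 2046 CPM of cerebrum, and had a log2 fold change of 4.27 there. An entry shared by miR-341 and a predicted miRNA, chr12_34260-5p_seed(miR-341-3p);miR-341, had 4.32 in soleus and 4.22 in biceps, at only 2.00 and 1.80 CPM. miR-299a-5p had 4.10 in biceps. The heart, also a striated muscle, went the other way, with 0 members higher and 40 lower where 8.49% of all names were called lower, and held miR-381-3p at 5.06 to 13.9 CPM.

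The remaining tissues were low or mixed. In glandular stomach 25 members were higher and 8 lower (21.1% and 6.16% of all names), led by miR-381-3p with 2.90 and miR-299a-5p with 2.86, and miR-376a-3p had −1.73. In non-glandular stomach 28 were higher and 2 lower (25.6% and 10.2%), led by miR-337-3p with 2.34 and miR-381-3p with 2.28, and miR-376b-3p had −0.97. In glandular stomach miR-381-3p ran from 32.1 to 1305 CPM with a median of 133.8, a wider range than in muscle. The muscle marker miR-133a-3p also varied there, from 880 to 8923 CPM, against 267350 CPM or more in biceps, and its part in these stomach levels was not tested. In pancreas 2 were higher and 25 lower (30.6% and 14.2%), with miR-540-5p at 1.20, miR-136-5p at 1.09, miR-758-3p at −2.11 and miR-411-5p at −1.64. The paper reports that pancreas RNA was the least intact of its tissues and gave the fewest reads on mature miRNAs. The part of RNA quality in these calls was not tested.

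No member was called higher in the other 8 tissues outside the kidney by edgeR or DESeq2, and at an unadjusted p under 0.05 edgeR had 1 in jejunum and 2 in uterus. Members called lower numbered 54 in whole blood (16.7% of all names), 43 in liver (9.87%), 40 in ileum (12.8%), 39 in jejunum (14.3%), 37 in ovary (6.98%), 32 in testis (18%), 29 in duodenum (10.2%) and 12 in uterus (2.89%). The count in uterus was 5 without rat 11 and 6 without either DRG pool. A member with no count both here and in another tissue could not be called lower. Some members with counts here also had a standard error too large for such a call. An example is miR-411-3p in duodenum, with a log2 fold change of −1.62 and an SE of 517569. These counts of members called lower are thus limited by the fit as well as by depth.

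In the kidney the region came apart along the chromosome. Kidney cortex held 7 members higher and 21 lower than the other tissues (24.5% and 6.54% of all names), whole kidney 9 and 24 (26.8% and 6.66%), and kidney medulla 0 and 39 (31.0% and 6.79%), with 1 higher in medulla at an unadjusted p under 0.05 and 0 by DESeq2. Of the 18 tested members from miR-770 to miR-136, 0 were higher and 10 were lower in cortex, with a median log2 fold change of −4.19. Of the 58 tested members from miR-379 to miR-410, 7 were higher and 9 lower, with a median of −0.46, while all names had 0.15. The counts called lower are limited by the fit and by depth here too. In liver the same groups had medians of −3.84 and −4.12, and in heart −2.79 and −2.79.

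The members high in kidney cortex all lay in the distal stretch. miR-134-5p was at 13.7, 21.2 and 45.9 CPM (lowest, median, highest) in cortex against 0 to 0.539 in liver and 0.482 to 2.26 in heart, without overlap, and had a log2 fold change of 1.44 ± 0.15 (SE). Its level was still below the 136.2 to 208 CPM of cerebrum. miR-1193-3p had 1.36 and miR-494-3p 1.30, and miR-485-3p had 1.17. At the other end were miR-127-5p with −5.48 ± 0.41, miR-431 with −4.50 and miR-127-3p with −4.43. miR-127-3p, which led in every tissue but cortex and whole kidney, was at 97.6 ± 67.4 CPM in cortex, below miR-411-5p at 202 ± 55.4. In whole kidney, miR-494-3p had 1.53, miR-1193-3p 1.51 and miR-541-3p 1.28, against −4.60 for miR-127-5p, −4.44 for miR-337-5p and −4.26 for miR-127-3p, and miR-411-5p again led by level at 161 ± 40.0 CPM. In medulla the lowest were miR-540-3p with −4.70, miR-433-3p with −4.56 and miR-127-5p with −4.34.

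The same split was plain in each sample. The stretch from miR-379 to miR-410 gave 80.9% of the members' counts in cortex (lowest library 65.1%, highest 96.9%), 79.8% in whole kidney (65.5% to 94.4%) and 59.7% in medulla (44.4% to 82.4%). The next tissue was soleus at 33.4% (30.6% to 36.7%), so that no kidney library overlapped with soleus. In adrenal it gave 17.9% and in brainstem 10.1%. With miR-127-3p left out of the total the stretch gave 91.9% in cortex and 38.7% in cerebrum.

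**Figure D2:**
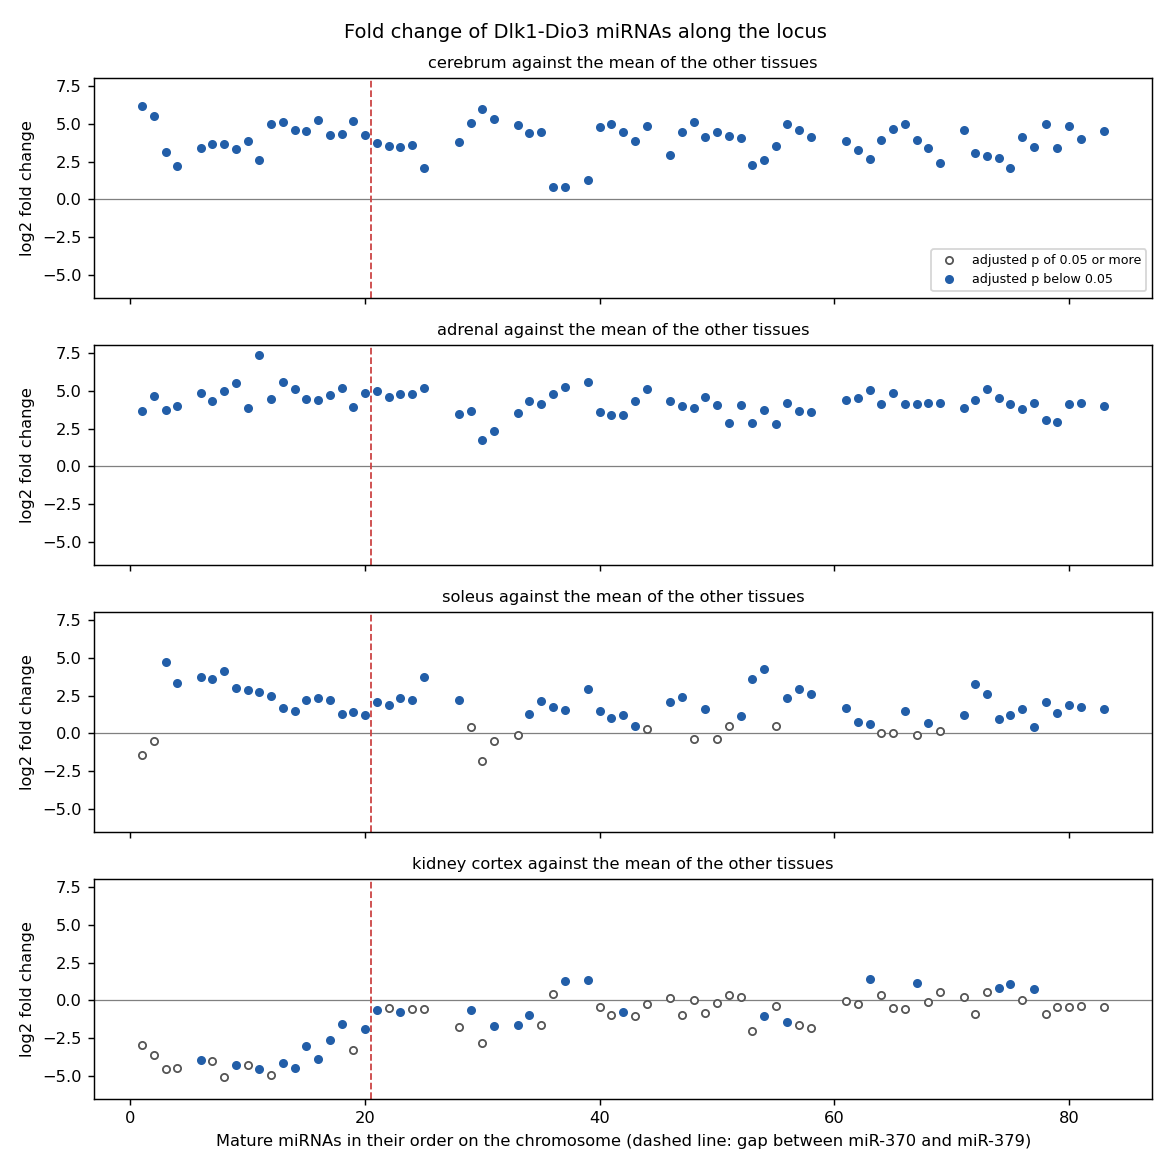
Log2 fold change of each tested member with a RefSeq position in cerebrum, adrenal, soleus and kidney cortex (panels from top), each against the mean of the other tissues, with members in their order along the chromosome on the x axis. Filled points passed the test, and the dashed line marks the gap before miR-379. In kidney cortex the members from miR-770 to miR-136 lie at a median of −4.19 and those from miR-379 to miR-410 at a median of −0.46.

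Within the kidney, a few members of the proximal stretch also differed between the sexes. Each of 19 tissues was tested for a sex difference over 1225 names, 78 of them members, and 15 member calls were made in 6 tissues, 12 of them in the kidney tissues and each of these 12 higher in females (edgeR). In kidney cortex 5 members were higher in females, where 8 of all 1225 names were (0.653%). In whole kidney it was 5 members of 6 names called higher (0.49%), and in medulla 2 of 4 (0.327%). The 3 kidney tissues came from the same rats and are not independent of each other. Without rat 11, a female, 9 of the 15 calls remained, 8 of them in the kidney tissues, and miR-136-5p and miR-434-3p were no longer called in cortex or whole kidney.

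miR-341, which lies just after Rtl1, had the largest difference. In kidney cortex the females (rats 7 to 11) were at 35.3, 42.5, 8.49, 9.23 and 49.2 CPM and the males (rats 2 to 6) at 0.400, 0.595, 4.46, 1.47 and 3.02 CPM. The lowest female was above the highest male, and the log2 fold change was 4.08 ± 0.43 (SE, edgeR adjusted p = 5.2e-14). In whole kidney the females were at 23.2, 18.4, 7.58, 7.98 and 34.6 CPM and the males at 0.384, 1.25, 4.58, 0.827 and 1.41, and in medulla the females were at 9.63, 19.2, 13.6, 5.50 and 7.31 and the males at 1.25, 1.46, 2.40, 2.19 and 3.51. The sexes did not overlap in either, and the log2 fold changes were 3.54 and 2.77. Rats 9 and 10 were the lowest females and rat 4 the highest male in both cortex and whole kidney.

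miR-136-3p, from the next hairpin upstream, moved with it. In cortex the females were at 19.9, 34.3, 7.08, 5.62 and 33.8 CPM and the males at 1.60, 1.49, 5.35, 1.28 and 4.70, without overlap, with a log2 fold change of 2.98 (edgeR adjusted p = 1.0e-08). The difference was 2.76 in whole kidney, without overlap, and 1.65 in medulla, where the sexes overlapped. miR-434-5p differed by 2.95 in cortex, with overlap, and by 2.48 in whole kidney, without. The counts of miR-434-5p were low, at most 8 in a male of either tissue. The lowest female had 3 in cortex and 7 in whole kidney. miR-136-5p differed by 1.86 and 2.14 and miR-434-3p by 1.63 and 1.39 in the same tissues. All 5 were cut from miR-434, miR-136 and miR-341, hairpins that follow each other in the order of the members.

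The difference between the sexes was itself larger in the kidney than in the mean of the 16 other tissues, by 4.15 for miR-341, 3.02 for miR-136-3p, 3.04 for miR-434-5p, 1.84 for miR-136-5p and 1.63 for miR-434-3p in cortex (log2, edgeR interaction, all 5 called). In whole kidney 4 of the 5 were called and miR-434-3p was not (edgeR adjusted p = 0.058), and in medulla miR-341 and miR-136-3p were called. These 5 were named for their calls in the same kidney samples, so the interaction is not separate support. In the 16 other tissues the log2 fold change of miR-341 lay between −0.68 and 0.48. The member highest in adrenal relative to other tissues, miR-431, was not called in kidney cortex and had at most 0.643 CPM in females and 1.45 in males. Their neighbour miR-127-3p was not called either, with 0.78 in cortex (edgeR adjusted p = 0.60), at 53.5 to 221 CPM in females and 22.02 to 159 in males.

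**Figure D3:**
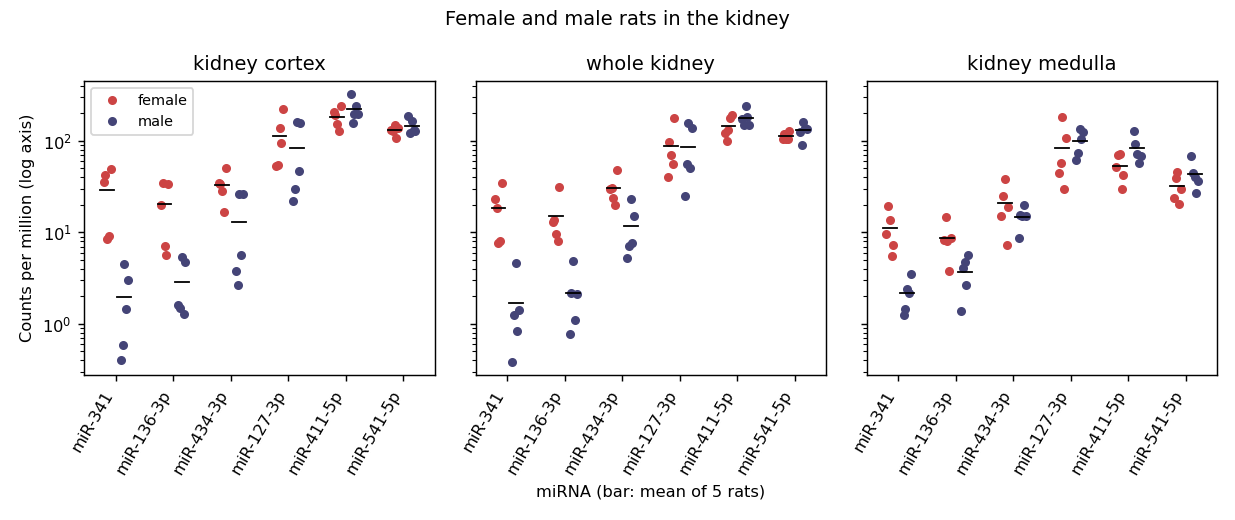
Levels in CPM, on a log axis, of 6 members in kidney cortex, whole kidney and kidney medulla, with a point for each rat, the sexes side by side and bars for the mean of 5 rats. The 5 female samples lie above the 5 male samples for miR-341 in all 3 tissues.

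Outside the kidney, 3 members were called between the sexes, 1 each in heart, glandular stomach and non-glandular stomach. miR-668, called higher in female heart (0.163% of all names), was at 0 in every male heart and in some female hearts, with at most 9 counts in a female, so that no fold is given. miR-381-3p had a log2 fold change of −1.42 in glandular stomach (0.653% of all names called lower), which was −0.41 without rat 5, and miR-380-3p had −1.68 in non-glandular stomach (0.163%). The sexes overlapped in both. In the adrenal and the 4 brain regions 0 members were called between the sexes by edgeR or DESeq2, and 0 had an unadjusted p under 0.05.

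The summed share of the members nonetheless separated the sexes in adrenal. In the females it was 13.4% ± 1.34 of counts (SD, n = 4, 11.5% to 14.3%) and in the males 9.11% ± 1.82 (n = 5, 7.11% to 11.4%), and miR-127-3p alone held 8.19% to 9.68% and 4.97% to 7.87%. The lowest female was above the highest male in both measures. In the fit the log2 fold change of miR-127-3p in adrenal was 0.38 (edgeR adjusted p = 0.91), and the median over the 78 members was 0.35, while all names had 0. Cerebrum was split in the same direction, with a members' share of 20.8% to 24.2% in females and 17.3% to 20.01% in males, and the sexes overlapped in the 3 other brain regions. These shares were compared after the values were seen and were not tested.

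Within the brain, most members called in cerebellum and brainstem were lower there than in cerebrum, while hippocampus and cerebrum hardly differed. Between hippocampus and cerebrum 0 of 80 members were called by edgeR, with 1 at an unadjusted p under 0.05, and 1 by DESeq2, where 0.943% of all names were called higher and 3.33% lower. In cerebellum 1 member was higher and 31 lower than in cerebrum (13.5% and 13.5% of all names), with a median log2 fold change of −0.77. The largest falls were miR-667-5p with −2.62, at 0.137 to 0.794 CPM in cerebellum and 4.26 to 6.13 in cerebrum, miR-770-5p with −2.15 and miR-770-3p with −2.01, at 2.60 to 6.30 and 16.7 to 38.5 CPM. The member called higher was miR-381-3p, at 1848 to 2458 CPM in cerebellum and 1168 to 2046 in cerebrum, with overlap and a log2 fold change of 0.95. This call was lost with TMM scaling (0.76, edgeR adjusted p = 0.058) and with DESeq2 size factors (0.56, edgeR adjusted p = 0.21).

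In brainstem 1 member was higher and 20 lower than in cerebrum (6.35% and 8.61%), with a median of −0.55. The exception was miR-758-3p, at 643, 695 and 949 CPM (lowest, median, highest) in brainstem and 185, 264 and 396 in cerebrum, without overlap, with a log2 fold change of 1.15. The largest falls were miR-1193-3p with −1.70, miR-299a-5p with −1.43 and miR-494-5p with −1.42. The last was called narrowly (edgeR adjusted p = 0.042).

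How many members passed in these regions varied with the settings. In cerebellum 0 were higher and 48 lower with TMM scaling, 0 and 60 with DESeq2 size factors and 0 and 68 with the DESeq2 Wald test. In brainstem it was 2 and 12, 2 and 10, and 4 and 24 under the same settings. Without a filter on low counts 23 members were called in cerebellum and 10 in brainstem, and with the 8 samples kept 17 and 1.

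The 2 DRG pools held 2 members higher and 21 lower than the mean of the brain regions (17.5% and 11.8% of all names), with a median of −1.03. The DRG RNA had another source than the brain RNA, and source and tissue cannot be told apart here. Both higher members came from miR-493. miR-493-3p was at 58.6 and 79.8 CPM in the pools and at most 26.6 CPM in any brain library, with a log2 fold change of 3.24, and miR-493-5p was at 60.1 and 64.6 CPM, with at most 39.1 CPM in brain and a log2 fold change of 2.34. The largest falls were miR-668 with −3.40, at 4.71 and 9.09 CPM in the pools and at least 44.1 in brain, miR-539-3p with −3.14 and miR-770-5p with −2.83. Without pool 1, 8 members were called, and 6 without pool 2, all of them among these 23 and in the same direction.

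The arms of a hairpin did not keep their ratio between cerebrum and adrenal. The share of a hairpin's counts that came from its 3p arm was compared in 169 hairpins, 34 of them of this region, by an exact two-sided permutation test over 10 cerebrum and 9 adrenal libraries. It was higher in cerebrum in 7 of the region's hairpins and lower in 15, and of all hairpins tested 44.4% were called. In miR-770 the 3p arm gave 50.4% of counts in cerebrum (45.2% to 57.0%) and 74.0% in adrenal (67.3% to 84.8%), without overlap, a difference of −23.6 percentage points. In miR-370 it gave 63.2% and 85.3% (−22.2), in miR-493 33.5% and 53.4% (−19.9), in miR-369 33.1% and 48.0% (−14.9) and in miR-485 25.5% and 39.6% (−14.1). These 5 differences had an exact permutation test adjusted p of 0.000159.

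A smaller set went the other way. The 3p share of miR-376b was 66.1% in cerebrum and 52.7% in adrenal, and that of miR-376a was 45.2% and 32.0%. That of miR-134 was 13.2% in cerebrum (11.6% to 15.3%) and 3.48% in adrenal (2.45% to 4.03%), without overlap, so that miR-134-5p was the main product in both.

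**Figure D4:**
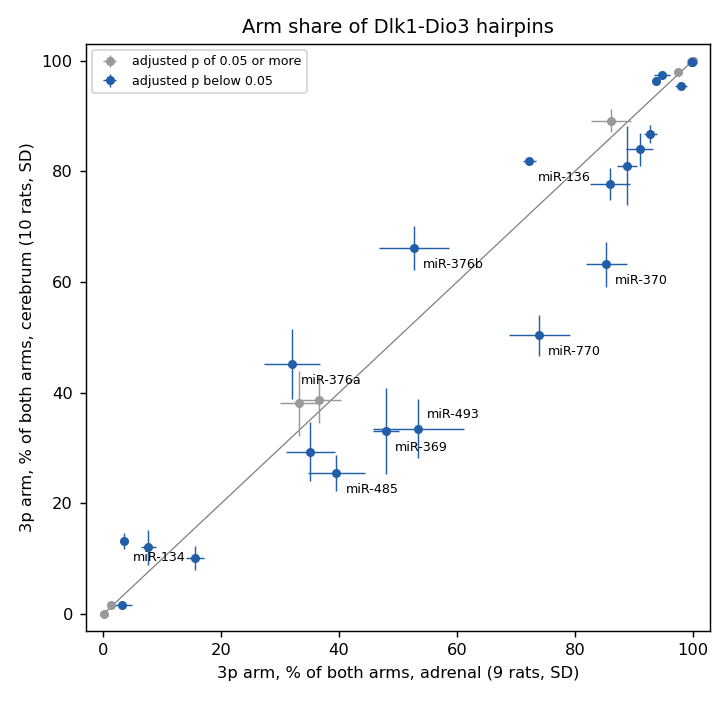
Mean share of counts from the 3p arm, in percent, of each hairpin of the region in adrenal (x axis, 9 rats) and cerebrum (y axis, 10 rats), with SD bars and the line of equal shares. Blue points passed the test, and miR-770 lies below the line at 74.0% and 50.4%.

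Reads with G in place of a genomic A were frequent at a few positions and set brain apart from adrenal in the same rats. Positions are counted from 1 at the 5′ end of the mature sequence. In all, 15 sites had enough reads and a G share of at least 1% in the mean of cerebrum and adrenal, 10 of them in members. All 15 (100%) were higher in cerebrum. A site near 0 in adrenal could pass this filter through its cerebrum share alone, and the filter used the same shares as the test. The count of sites higher in cerebrum is thus a description. For each of the 10 member sites the exact two-sided permutation test gave p = 2.17e-05, the smallest it can give, and an adjusted p of 2.32e-05. At A6G of miR-376b-3p the G share was 52.3% in cerebrum (41.5% to 58.0%) and 15.04% in adrenal (11.8% to 20.3%). At A6G of miR-376c-3p it was 43.8% ± 4.22 (38.0% to 48.6%) and 2.55% (1.42% to 4.25%). At A13G of miR-377-3p it was 23.4% and 1.59%. Cerebrum and adrenal did not overlap at these 3 sites.

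The remaining member sites had smaller G shares in cerebrum than the sites above, and these shares were still higher than in adrenal. In miR-337-3p the G share was 21.9% in cerebrum and 2.18% in adrenal at A4G, and 14.5% and 0.877% at A11G. At A5G of miR-411-5p it was 20.7% (11.6% to 23.4%) and 0.952%. At A4G of miR-376a-5p it was 10.5% and 0.107%, at A5G of miR-379-5p 6.40% and 0.0667%, and at A3G of miR-540-5p 4.78% and 0.226%. At A7G of miR-376b-5p it was 2.69% and 0.184%. By contrast, A6G of miR-376a-3p, the position that miR-376b-3p and miR-376c-3p share, was at 0.043% in cerebrum and at 0 in adrenal, where its 1105 reads allow a share of up to 0.271% (3 counts, counting error only). At A4G of miR-381-3p the share was 1.15% in cerebrum and 2.99% in brainstem, but its first 18 bases then equal those of the miR-300 hairpin, so these reads cannot be told apart.

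Brain regions differed in level from site to site. miR-376c-3p A6G reached 62.7% in brainstem, 34.2% in hippocampus and 28.0% in cerebellum, and 24.6% in DRG, and lay at 0.26% in biceps and 0.27% in soleus. miR-377-3p A13G was at 40.5% in brainstem. Cerebellum was the highest of the brain regions for miR-337-3p A11G at 37.4%, miR-376a-5p A4G at 20.1% and miR-540-5p A3G at 14.8%. miR-411-5p A5G was at 34.5% in brainstem and 33.3% in cerebellum, and outside the nervous system at 17.7% in non-glandular stomach (3.73% to 32.2%) and 11.9% in liver. Regions other than cerebrum and adrenal were not tested against each other.

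**Figure D5:**
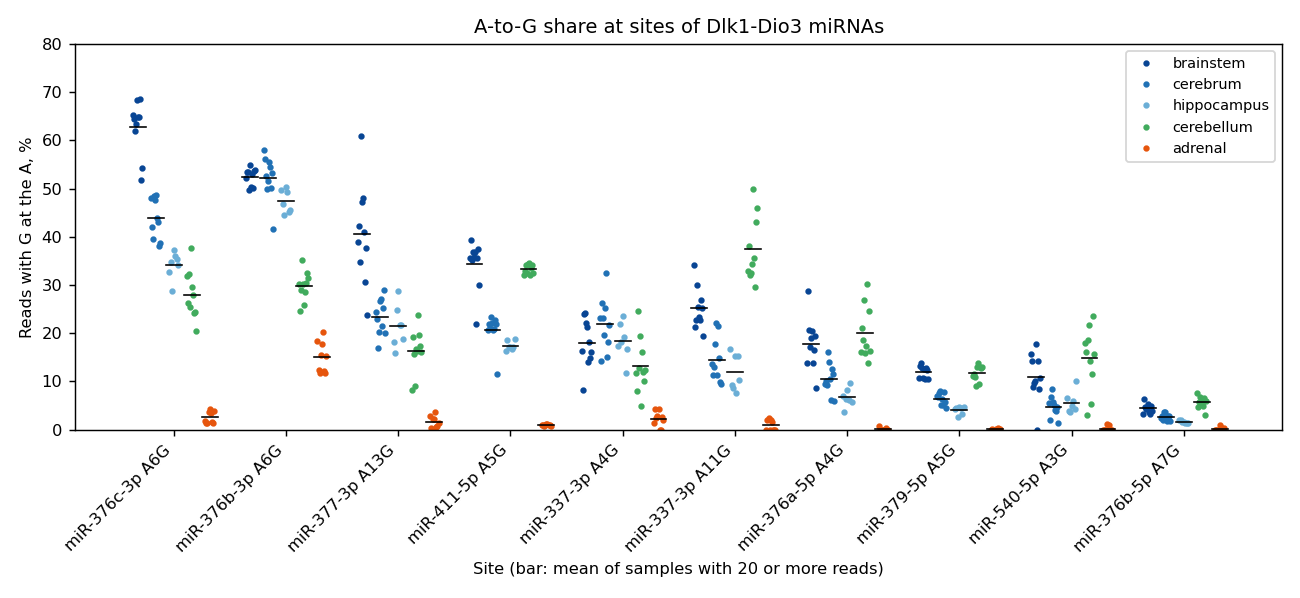
Share of reads with G at an A of the mature sequence, in percent, at the 10 member sites, with a point for each library of the 4 brain regions and the adrenal and bars for their means. All cerebrum libraries of miR-376c-3p A6G lie between 38.0% and 48.6% and all adrenal libraries between 1.42% and 4.25%.

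These sites shared features that their choice did not use. Of the 10 sites, 8 lie in the seed, 8 are followed by G, 7 are preceded by U and 5 read UAG. No share over all A positions is given for these features, so they are only described. The G forms of the 8 sites in the seed had seeds of no RefSeq rat mature miRNA, while those of miR-377-3p A13G and miR-337-3p A11G lie outside the seed and keep it. In cerebrum, 13 of the members' 261 A positions had a G share of at least 1% and 8 of at least 5%. Over the other 11 kinds of substitution in members, 1 position reached 1%. In the other names, 18 of 1047 A positions had a G share of at least 1%. The other kinds of substitution reached it there too, at up to 6 positions each.

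The 5′ end of a mature miRNA fixes its seed, and the share of reads at the most counted start was compared between cerebrum and adrenal. Over all runs, 52 members among 235 names were tested for the share of reads at their most counted start, and 1 was higher and 6 lower in cerebrum (exact two-sided permutation test, 9.79% of all names called). With cerebrum and adrenal paired by rat, 0 of these 7 were called by sign flips, where the smallest adjusted p was 0.054. One lane of 14 runs carried reads that start 1 base earlier: 54.3% to 64.7% of its miR-127-3p reads were longer by 1 base at the 5′ end, against at most 10% in any other lane, and the cerebrum of rat 9 was in it. Without that lane, 9 of 41 members were higher and 6 lower in cerebrum (30.2% of 182 names called), and pairing by rat was not tried there. In either case the members were called at near the rate of all names, so this is not read as a trait of theirs.

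The members called with that lane and without it were few. miR-341 started at its most counted base in 59.5% of cerebrum reads and 79.5% of adrenal reads (−19.9 percentage points), and in 63.3% of cerebrum reads without the lane. miR-411-5p started 1 base before the RefSeq start in 58.3% of reads in cerebrum and 47.4% in adrenal, and in 59.8% of cerebrum reads without the lane. Its form with that start, printed above, has another seed. The difference for miR-300-3p was −9.07 points and that for miR-127-3p −5.86, and without the lane the shares were 87.3% and 92.9%, and 98.8% and 99.4%. miR-136-3p had −6.53 points with the lane and −1.02 without it, where it was not called (exact permutation test, adjusted p = 0.125). Without the lane the largest differences were in miR-485-3p, with 63.9% in cerebrum and 48.3% in adrenal, miR-495, with 79.7% and 66.9%, and miR-409a-3p, with 67.1% and 54.5%.

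Across the 23 tissues, the members' mean levels rose and fell together. The Spearman correlation of each member with the sum of the other members had a median of 0.903 over 80 members, from 0.628 for miR-323-5p to 0.988 for miR-341, and was above 0.9 in 42 of them. For every member but miR-127-3p, this sum was mostly miR-127-3p. That name gave a mean 70.8% of the members' counts in brain and 52.7% outside brain, adrenal and DRG. The correlations are thus largely with that name, and these points share libraries and depth. Names outside the list were ranked by Spearman rho over 23 tissues against the members' summed level. The most similar were miR-6331 (0.970), mir-431-pre (0.965), miR-673-3p (0.961), an entry shared by a predicted miRNA and mir-6331-pre (0.955) and miR-673-5p (0.950). Of these, mir-431-pre comes from the hairpin of miR-431, and miR-673 is of the same region. The prediction in the mir-6331-pre entry, chr6_20079, is numbered between those of the hairpins of miR-539 (chr6_20078) and miR-382 (chr6_20088).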

How the data were processed

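Small RNA of 23 rat tissues was sequenced on an Illumina HiSeq after TruSeq small RNA library preparation. The authors trimmed adapters with cutadapt (version 1.4.1), dropped short reads and reads with an unread base, assigned reads to known and predicted miRNAs with the miRDeep2 quantifier, and deposited raw counts per name and run and a further table of counts per read sequence. Reads that fit several names were counted under a joint entry, and reads on a hairpin outside its annotated mature forms under a separate one. Both can lower a member's count. These deposited counts were used as they stand, without rounding. Shares of reads with G and of 5′ ends came from the table of read sequences, placed on the RefSeq hairpin with at most 2 mismatches, so reads with more are lost to these shares.

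The 458 deposited runs were summed to 207 samples of 1 tissue and 1 rat (DRG libraries to 2 pools), except 14 runs that repeat a lane, and 8 samples that stood apart were set aside. Counts were fitted in edgeR (4.0.16, R 4.3.3) by the quasi-likelihood test with upper-quartile scaling and a filter on low counts by tissue, 1591 names tested, with Benjamini-Hochberg adjustment at 0.05. Shares were compared by exact two-sided permutation tests in SciPy (1.17.1) over cerebrum and adrenal libraries with at least 20 reads each, adjusted over all hairpins, sites or names tested. G and 5′ end shares were tested for names with a rat source in the table, which leaves out miR-381-3p, and G shares at sites with a mean of at least 1%. A name without counts in the tissues compared cannot be called lower, and neither can a name whose fold had a very large standard error. Scripts were tested on simulated data with known changes. Replicates are separate rats, and the DRG libraries of 1 pool are technical repeats.

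Apart from the DRG pools, the samples of different tissues come from the same rats per the labels. The rat number was therefore fitted as a block in an alternative. Deviations from the tissue means correlated at a median of 0.011 within a rat (1846 sample pairs) and −0.0068 between rats (16638). The members and gene lists were chosen with earlier results of these data known. Named are the 10 members highest in brain, the 3 with the largest change in each direction of a contrast, the leading member of each tissue, the members called between the sexes and those with the largest differences in arm, G or 5′ end share. miR-431 in kidney, miR-494-5p and miR-133a-3p in stomach were named after their values were seen. Alternatives chosen after seeing the data were leaving out 1 sequencing lane, leaving out each DRG pool, the kidney interaction with sex, and the shares with the 8 samples or all runs kept.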

Additional observations from a re-analysis of the deposited data

Results flagged for a closer look

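Of 92 groups of 4 to 10 samples examined for a sample far from the rest, 16 held one, where chance alone gives about 4.6 (1 in 20). The sample named in each sentence lay apart from its group by more than Dixon's 95% value. Of the 16, 8 were measures of the cerebrum of rat 9, a sample partly sequenced in the lane with reads that start 1 base earlier.

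In the cerebrum of rat 9, the share of reads at the most counted start was 30.3% for miR-341, 47.0% for miR-411-5p, 50.4% for miR-300-3p, 32.1% for miR-136-3p and 46.4% for miR-127-3p, each below the other 9 rats. In the same library the 3p share of miR-369 was 12.3%, where the next lowest was 31.7%, and the G share was 41.5% at miR-376b-3p A6G and 11.6% at miR-411-5p A5G.

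In the adrenal, rat 10 had a G share of 0.668% at miR-376a-5p A4G, rat 4 had 0.909% at miR-376b-5p A7G and rat 6 had 0.321% at miR-379-5p A5G, each above the other rats. The members' share of counts in the duodenum of rat 8 was 0.214%, where the next highest was 0.136%. In female whole kidney, rat 11 stood at 31.1 CPM for miR-136-3p and 10.5 CPM for miR-136-5p, and in male whole kidney rat 4 stood at 4.58 CPM for miR-341. In female heart, rat 8 stood at 2.07 CPM for miR-668.

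The female minus male difference in a kidney tissue was larger than its mean over the 16 other tissues in 11 cases (edgeR interaction, log2 scale). The kidney values are the same as those of the sex calls above. For miR-341 the excess was 4.15 in cortex, 3.61 in whole kidney and 2.84 in medulla, for miR-136-3p 3.02, 2.79 and 1.68, for miR-434-5p 3.04 in cortex and 2.56 in whole kidney, for miR-136-5p 1.84 and 2.12 in the same tissues, and for miR-434-3p 1.63 in cortex.

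The duodenum samples set aside held the members at 9.26% (rat 11), 22.9% (rat 2), 23.0% (rat 4) and 37.7% (rat 7) of counts, against 0.0963% to 0.214% in the 6 duodenum samples used.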

How the results depend on the processing

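For 84 named results, 1453 values under other settings were computed, of which 1365 kept direction and side of the threshold, 88 kept direction but no longer passed and 0 turned direction. Among counts of member calls, the brain regions against cerebrum (53) gave 97 with the DESeq2 Wald test, 34 without a filter and 19 with all libraries kept, and 42 to 58 without 1 rat. DRG against brain (23) gave 46, 13 and 5 under the same settings and 6 to 25 without 1 rat or pool, with 8 without pool 1 and 6 without pool 2. The sex calls (15) ranged from 9 to 16 without 1 rat, with 9 without rat 11. The arm calls (22) fell to 4 and the A-to-G calls (10) to 1 with the adrenal of rat 8 kept. The A-to-G calls were 5 with a minimum of 100 reads and 5 without 1 sequencing lane, since fewer sites were tested. The 5′ end calls (7) were 15 without that lane. With the 8 samples kept, the share was 16.3% in hippocampus and 9.36% in duodenum. The causes were not tested further.

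With rat as a replicate block, members called were 76 for brain, 77 for adrenal and 1023 for each tissue against the other tissues (1110 without the block), 50 between brain regions, 21 arms and 10 A-to-G sites. No 5′ end share was called with the pairing (0). A sign flip test within rats cannot give less than p = 0.0039, and the smallest adjusted p for 5′ ends was 0.054. The arms and A-to-G sites were called under the same limit, but fewer of them were tested, which eases the adjustment. Whether the limit alone gave the 0 was not tested. The block changed no other call by over 1.5 times and could not be set for the sexes or the DRG pools.

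Without 1 rat or pool, brain gave 77 to 81 calls, adrenal 79 to 83 and all tissues 1046 to 1101. Another scaling moved the median of all names by 0.51 (TMM) and 0.53 (DESeq2 size factors) for brain and by 0.35 and 0.51 for adrenal, so folds there are relative to it. Depth and the fit limit what can be called low.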

Other observations

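Outside the list of members, 13 names of the same region were found, and 8 of them could be tested. miR-6331 was not among the 13. Of these, 6 were higher in brain and 6 in adrenal than in the non-neural tissues compared (edgeR). miR-673-3p had log2 fold changes of 4.71 and 5.65, miR-666-3p 4.57 and 5.72 and miR-673-5p 2.77 and 6.11. miR-1247-5p, which is transcribed near the end of the region, differed from these, with −2.02 in brain and its highest level in liver, at 86.5 CPM.

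Reads on the hairpins outside the annotated mature forms were rare. The paper states that entries of this kind mostly are the other strand of a miRNA, still without annotation as mature. Whether this holds for the entry of miR-431 was not tested. The 57 entries of this kind held 41108 counts, or 0.0981 per 100 counts of the members, and 38081 of those were on the hairpin of miR-431, at a mean of 200.2 CPM in cerebrum and 75.3 CPM in adrenal, where the mature miR-431 stood at 188 and 1855 CPM.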
